A study of Mus musculus with 24 samples.

Results

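Growth genes of fetal life, 10 in all, were followed over the first 49 days of life in mouse alveolar macrophages, the resident phagocytes of the lung airspace: the RNA-binding proteins Igf2bp2, Igf2bp3 and Lin28b, the chromatin factors Hmga1, Hmga2 and Arid3a, and the imprinted genes Plagl1, Igf2, H19 and Dlk1. They were taken by name, by matching the Ensembl identifiers of the count table to mouse symbols, and all 10 were found among the table's 56691 genes. The cells were washed from the lungs at 5 ages named by the day after birth, D1, D3, D7, D21 and D49. They were then cultured for 4 h, either with lipopolysaccharide of E. coli (LPS, a bacterial cell wall component) at 400 ng/mL or in medium lacking it as control. The control groups held 2, 3, 2, 3 and 3 libraries from D1 to D49 and the LPS groups held 3, 2, 2, 2 and 2, so that 24 libraries form 10 groups. Cells of 3 to 6 mice were pooled per age, and each library was made from cells pooled over 3 to 5 replicates of a condition. Every library, controls included, had therefore spent 4 h in culture, and cells taken directly from the lung were not among the samples. The strain, sex and genotype are not given in the labels, which also do not say whether the libraries of a group came from separate pools of mice, so that p-values measure the spread between these libraries, which may be technical.

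Oncofetal genes are active in fetal tissue, fall silent after birth and often return in tumours. Several of them share a regulator, the let-7 family of microRNAs, which pairs through its seed with sites in the 3' untranslated region (UTR) of a messenger and lowers its stability and translation. LIN28B blocks the maturation of let-7 precursors, and in mouse fetal blood progenitors Lin28b, Igf2bp3, Hmga2 and Arid3a belong to a network that distinguishes fetal from adult output. Igf2, H19, Dlk1 and Plagl1 are imprinted genes, each expressed mainly from 1 parental copy, and belong to a network of embryonic growth control that is switched down in most tissues after birth.

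The let-7 sequences and the matching sites are shown because they are the feature by which most of these genes are grouped. Of 11 mature mouse let-7 and miR-98 sequences in the RefSeq table, 10 carried the same seed at bases 2 to 8 (capitals), and let-7j differed in the last base of it. 4 of them are printed here.
mmu-let-7a-5p: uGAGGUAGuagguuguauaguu
mmu-let-7g-5p: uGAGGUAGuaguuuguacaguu
mmu-miR-98-5p: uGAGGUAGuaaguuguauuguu
mmu-let-7j: uGAGGUAUuaguuugugcuguuau

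An 8-base match to that seed, CTACCTCA, was searched on the sense strand of the longest annotated 3' UTR of each gene (GENCODE M21, GRCm38). It was present in 3.06% of the 3' UTRs of 21045 genes, and in 5 of the 10 genes followed here. These genes were chosen in part as let-7 targets, so the difference in share follows from the choice. Their 3' UTRs also ran from 1183 to 4445 bases, against a median of 960 over the genes searched. The 3' UTRs of Igf2bp1 and Igf2r, which are described below, held the 8-base match as well, Igf2bp1 at 3 places. The sites are printed with their flanking bases, the match in capitals.
Igf2bp2: ataaaagCTACCTCAggtgttt
Igf2bp3: tactcaaCTACCTCAggtattc
Lin28b: gggaagtCTACCTCAtgcaagc
Hmga2: tcaatttCTACCTCAgcatcag
Arid3a: tttctttCTACCTCAggtcttt
Igf2bp1, first site: aagtaaaCTACCTCAaggtgtg
Igf2bp1, second site: ctattaaCTACCTCAgccccag
Igf2bp1, last site: ggatgaaCTACCTCAgtcctca
Igf2r: ccgtgccCTACCTCAtctctgt

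Shorter matches were CTACCTC and TACCTCA, and both lie within the 8-base match, so only copies outside one were counted. Hmga1 held 1 copy of CTACCTC (tcacaaaCTACCTCtggacggt), and Hmga2 held 3 of CTACCTC and 3 of TACCTCA beside its 8-base match. Igf2 held 1 copy of TACCTCA, and Plagl1 and Dlk1 held none of the 3 motifs. Beside its 8-base match Lin28b held 3 copies of the first shorter motif and 1 of the second, Arid3a 1 and 2, and Igf2bp2 0 and 1. Any of the 3 motifs was present in 14.88% of the 3' UTRs searched. H19, a long noncoding RNA, has no 3' UTR and was not searched. A match describes the sequence only. The libraries select polyadenylated RNA and do not measure mature microRNAs: the 12 let-7 and miR-98 precursor genes in the table held between 0 and 3 reads each over all libraries.

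Library totals were 15.8 to 23.3 M counts. The 15 alveolar macrophage markers, among them Siglecf, Marco, Pparg and Car4, were detected in every group. Their summed level was 9500 to 11800 CPM (counts scaled to a common library total) in D1 controls and 33100 to 52700 in D49 controls. Chil3 alone ranged from 186 to 35500 CPM over all libraries. Of the 15, 8 were called higher and 2 lower at D49 than at D1 in controls, and 5 were not called. Of the markers of other cells, the 6 of lacrimal and salivary gland moved most: they summed to 0.234 to 0.618 CPM in D1 controls and 1300 to 2390 at D49, all 6 called higher, and to 854 to 1320 and 7.25 to 9.32 CPM in LPS libraries of the same ages, all 6 called lower. The 8 hepatocyte markers summed to 23.1 to 25.9 CPM in D1 controls, 273 to 356 at D7 and 38.6 to 80.9 at D49. Several other lists fell with age. The 8 monocyte markers summed to 43.9 to 57 CPM in D1 controls and 11 to 14.6 at D49, and the 10 endothelial markers to 13.2 to 15.4 and 1.13 to 2.19. The 9 erythroid markers summed to 19.4 to 21.7 and 0.26 to 2.15, and the 10 neutrophil markers to 103 to 166 and 45.2 to 68.4. The 14 lung epithelial markers summed to 86.6 to 90.5 and 48.9 to 62.4. Levels within a list were uneven: at most, S100a8 reached 201 CPM and Ly6g 0.191, and Pecam1 25.9 and Cldn5 0.0856. Tested singly, 4 of 5 monocyte, 2 of 2 endothelial, 2 of 4 erythroid, 3 of 5 neutrophil and 4 of 8 lung epithelial markers were called lower. Called higher were 1 neutrophil and 1 lung epithelial marker. The 8 skeletal muscle markers summed to 19.9 to 268 CPM in D21 controls and at most 1.32 with LPS, with 5 of 6 tested called lower. Libraries also differed in how strongly GC-rich genes were represented. This GC deviation, the log2 level of the most GC-rich tested genes relative to the most GC-poor, ran from -3.12 to 2.83 and had its highest values among D1 and D3 libraries and its lowest among D21 and D49 controls, so it moved with age. For that reason age differences are also given from a fit with the GC deviation as a covariate and from the 14 libraries whose deviation was within 1. These are bulk libraries, in which fewer cells of a type and less RNA per cell cannot be told apart.

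Of the 10 genes, 5 were expressed well enough to test, with at least 1 FPKM (counts scaled by exon length and library total) in 2 or more libraries: Igf2bp2, Igf2bp3, Hmga1, Arid3a and Plagl1. The others were too low to judge: over all 24 libraries Lin28b had 65 counts, Hmga2 43, H19 153, Igf2 8 and Dlk1 2. Per length, the order in D1 controls was Hmga1 at 13.2 ± 5.85 FPKM (SD, n = 2), Arid3a at 11.3 ± 1.29, Igf2bp2 at 7.5 ± 1.01, Igf2bp3 at 6.14 ± 0.727 and Plagl1 at 0.538 ± 0.109. In D49 controls Igf2bp2 stood first at 12.7 ± 3.43 FPKM (SD, n = 3), Hmga1 was at 3.24 ± 2.04, Arid3a at 1.55 ± 0.715, Igf2bp3 at 0.594 ± 0.178 and Plagl1 at 0.316 ± 0.0411. By mean ± SD, the spreads of Hmga1 and Arid3a overlapped at both ages. That of Igf2bp2 overlapped those of Hmga1 and Igf2bp3 at D1.

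**Figure D1:**
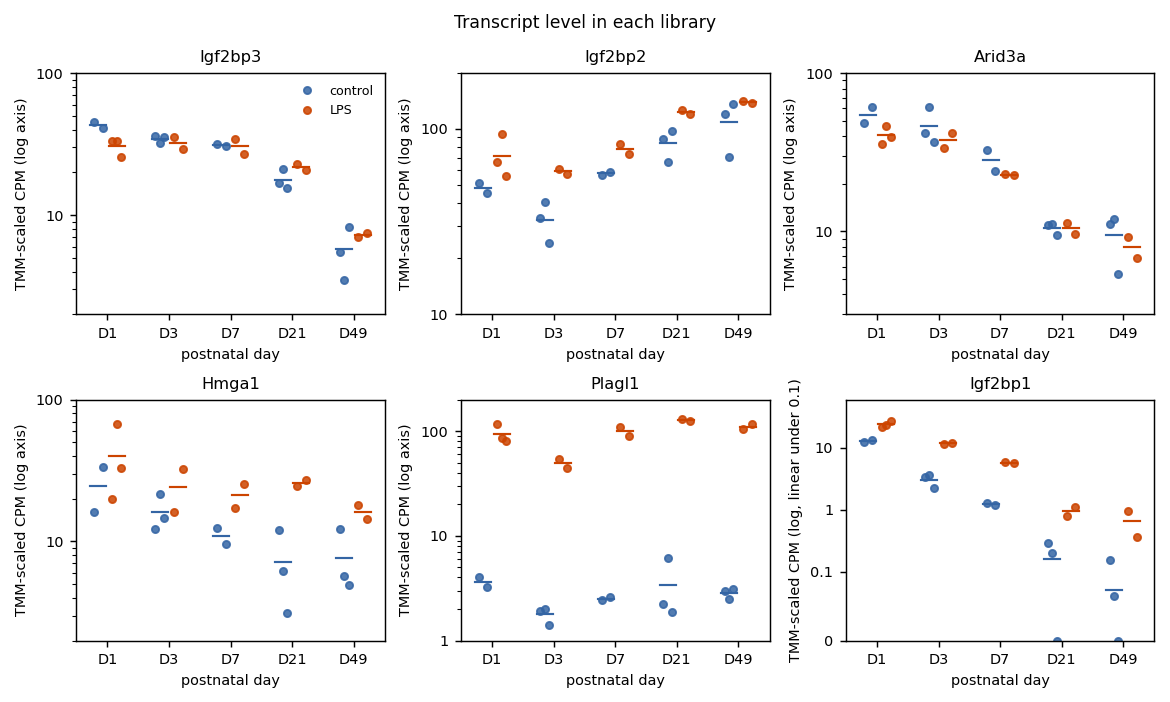
Level in each library of the 5 tested genes and of Igf2bp1, as CPM scaled by TMM (log axes; for Igf2bp1 the axis is linear under 0.1), against postnatal day; points are libraries, bars are group means, blue is control and orange LPS. Igf2bp3, Arid3a and Igf2bp1 decline with age in both treatments, Igf2bp2 is higher at D49 than at D1, and Plagl1 lies between 44.7 and 130 CPM in every LPS library against at most 6.11 in controls.

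Between D1 and D49, 3 of the 5 tested genes fell in control cells (Igf2bp3, Arid3a and Hmga1), Igf2bp2 rose, and Plagl1 did not pass the test. Age moved much of the transcriptome: 42.8% of the 11774 tested genes were called in the same comparison, 21% higher and 21.9% lower at D49, so the share of 4 in 5 is read against that. That background rests on few libraries, as 5042 genes were called with all of them, 674 without D1 control replicate 2 and 2642 without D49 control replicate 3. The call of Hmga1 was lost with the GC covariate, as given with its values. The median log2 difference was -1.69 over the 5 genes and -0.03 over all tested genes, and that of the 5 genes became -0.80 with the GC covariate and -0.49 over the 14 libraries within 1. In LPS-treated cells 3 of 5 were called (Igf2bp3 and Arid3a lower, Igf2bp2 higher), where 30.7% of all tested genes were (3620 genes, 775 without D49 LPS replicate 2, 1952 without D49 LPS replicate 1, 1714 without D1 LPS replicate 2 and 2219 without D1 LPS replicate 3).

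The first group are the IMP proteins, which bind messengers such as that of Igf2 and set their stability, place and translation. Igf2bp3 (IMP3, chromosome 6) is the member known for fetal and tumour expression. Its level in controls was 45.5 and 41.4 CPM at D1, 36.2, 32.1 and 35.4 on D3, 31.8 and 30.5 on D7, 16.7, 21 and 15.4 on D21, and 5.46, 3.51 and 8.2 at D49. No library of D21 reached the lowest of D7, and none of D49 reached the lowest of D21. The fall from D1 to D49 was 7.6-fold, a log2 difference of -2.93 ± 0.28 (SE; edgeR quasi-likelihood test, adjusted p = 1.3e-06). Among the steps between neighbouring ages, D21 to D49 passed the test (log2 difference -1.63 ± 0.25, edgeR adjusted p = 0.0014), in a comparison that called 1.26% of genes. The step from D7 to D21 had a log2 difference of -0.82 ± 0.27 and missed the threshold (edgeR adjusted p = 0.23). Fitted with the GC covariate, this step was called (-0.92 ± 0.24, edgeR adjusted p = 0.029), as it was with that covariate and a replicate block (0.044) and over the 14 libraries within 1 (0.041), 3 of 32 alternative settings.

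The decline of Igf2bp3 was also present in LPS-treated cells, which held 33.2, 33.3 and 25.7 CPM at D1 and 6.99 and 7.52 at D49 (log2 difference -2.08 ± 0.30, edgeR adjusted p = 9.3e-05). The control difference was -3.24 ± 0.31 once the GC covariate was fitted (edgeR adjusted p = 1.3e-08) and -3.11 ± 0.23 over the 14 libraries within 1 (edgeR adjusted p = 0.00016). Malsu1, a mitochondrial ribosome assembly gene, overlaps 1529 exonic bases of Igf2bp3 on the opposite strand, and whether counting used the strand is not given in the sources used here. Malsu1 itself had 6.56 and 4.63 CPM in D1 controls and 8.07, 12.2 and 8.8 at D49, the opposite course. The call of D21 to D49 was lost when only those control libraries were fitted (highest edgeR adjusted p = 0.4).

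Igf2bp2 (IMP2, chromosome 16), a paralogue that stays active in adult tissues, went the other way. Controls had 51 and 45.2 CPM at D1, 32.9, 40.2 and 24.2 on D3, 56.7 and 58.5 on D7, 88.5, 66.6 and 97.1 on D21 and 120, 70.9 and 137 at D49. The lowest levels were at D3, and at D49 2 of 3 libraries exceeded every younger control. The D49 to D1 log2 difference was 1.18 ± 0.29, a 2.27-fold rise (edgeR adjusted p = 0.0062), and 0.96 ± 0.27 in LPS-treated cells (edgeR adjusted p = 0.016). None of the 4 steps between neighbouring ages passed the test for Igf2bp2 in edgeR over all libraries, and DESeq2 called none either. The step from D3 to D7, with a log2 difference of 0.83 ± 0.27, had an unadjusted edgeR p under 0.05, and it was called over the 14 libraries within 1 (1.06 ± 0.17, edgeR adjusted p = 0.032), 1 of 32 alternative settings. Without D1 control replicate 2 the control rise was 1.10 with an edgeR adjusted p of 0.11, and with only the D1 and D49 controls in the fit the adjusted p was 0.12. In LPS-treated cells the call was lost without D1 replicate 3 or either D49 library (edgeR adjusted p = 0.06 to 0.14).

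Another paralogue, Igf2bp1 (IMP1, chromosome 11), came from the list of other described let-7 targets and had the steepest course. Control libraries held 269 and 342 counts at D1, 69, 84 and 54 on D3, 25 and 24 on D7, 5, 3 and 0 on D21 and 3, 1 and 0 at D49. Levels fell from 12.6 and 13.2 CPM at D1 to at most 0.156 CPM at D49, near the 0.116 to 0.226 CPM that 3 counts make in these libraries, so no fold is given (edgeR adjusted p of D49 against D1 = 1.1e-06). Under 32 alternative settings the call was kept in all 32 (highest adjusted p = 0.023). The endothelial and erythroid marker sums fell over the same ages, as given above, and their part in the Igf2bp1 difference was not tested.

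Set side by side per length, the IMP family changed its make-up. Igf2bp3 formed 40.5 ± 0.08% (SD, n = 2) of the summed FPKM of the 3 paralogues in D1 controls, 47.9 ± 7.46% (n = 3) at D3, 32.6 ± 1.14% (n = 2) at D7, 16.5 ± 5.06% (n = 3) at D21 and 4.48 ± 0.614% (n = 3) at D49. Igf2bp2 formed 49.4 ± 0.92% at D1 and 95.5 ± 0.565% at D49, and Igf2bp1 10.2 ± 1% at D1 and 0.0542 ± 0.0491% at D49. The summed level was 15.2 ± 1.77 FPKM at D1 and 13.3 ± 3.58 FPKM at D49, a difference smaller than the spread between the D49 libraries. With LPS, Igf2bp3 formed 23.8 ± 2.69% (n = 3) at D1, 30 ± 2.22% (n = 2) at D3, 25.1 ± 1.66% (n = 2) at D7, 13.8 ± 0.407% (n = 2) at D21 and 4.48 ± 0.308% (n = 2) at D49. Igf2bp2 then formed 60.2 ± 5.31% at D1 and 95.2 ± 0.0932% at D49, and Igf2bp1 16 ± 4.32% and 0.342 ± 0.215%. The mean Igf2bp3 share was lower with LPS than in controls from D1 to D21, by less than the control SD at D21, and equal to it at D49, while the mean Igf2bp1 share was higher at each of the 5 ages. These shares describe FPKM values and were not tested.

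The second group bind chromatin. Arid3a (chromosome 10), an AT-rich-interaction-domain factor known from B cell and stem cell regulation, was lower at D49 than at D1, with most of its fall by D21. Its controls had 48.4 and 61.2 CPM at D1, 42.1, 60.9 and 36.8 on D3, 32.8 and 24.1 on D7, 11, 11.2 and 9.5 on D21 and 11.1, 12 and 5.42 at D49. D1 and D3 overlapped, D7 lay below both, and D21 and D49 overlapped at the bottom. The D49 to D1 log2 difference was -2.52 ± 0.31, a 5.75-fold fall (edgeR adjusted p = 2.1e-05), and -2.34 ± 0.34 in LPS-treated cells (edgeR adjusted p = 9.7e-05).

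The step of Arid3a from D7 to D21 passed the test (log2 difference -1.43 ± 0.30, edgeR adjusted p = 0.025), where 1.1% of genes did. That call was lost when any 1 of the 5 D7 or D21 control libraries was left out (log2 difference -1.19 to -1.63, edgeR adjusted p = 0.064 to 0.43). From D21 to D49 the difference was -0.15 ± 0.28. Within groups the level of Arid3a rose with the GC deviation of the library (r = 0.72 over 24 libraries, with group means removed). The fall from D1 to D49 was -1.91 ± 0.30 once the GC covariate was fitted (edgeR adjusted p = 3.3e-05) and -2.17 ± 0.26 over the 14 libraries within 1 (edgeR adjusted p = 0.0012). With only the D1 and D49 controls fitted the adjusted p was 0.058.

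Hmga1 (chromosome 17), a high-mobility-group protein that bends AT-rich DNA and is abundant in dividing and fetal cells, had the widest spread. Control libraries held 16.1 and 33.2 CPM at D1, 12.2, 21.6 and 14.6 on D3, 12.4 and 9.6 on D7, 12.1, 6.18 and 3.13 on D21 and 12.3, 5.66 and 4.89 at D49. D1 lay above D49 in every library, while each age overlapped the next. The log2 difference of D49 to D1 was -1.69 ± 0.55 (edgeR adjusted p = 0.023), and in LPS-treated cells -1.31 ± 0.58, which missed the threshold (edgeR adjusted p = 0.086).

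This age difference of Hmga1 moved with library GC deviation. The exons of Hmga1 are 61.4% GC, above 99% of the tested genes, and within groups its level followed the GC deviation with r = 0.87 over 24 libraries, a slope of 0.52 log2 units per unit of deviation. With the GC covariate the D49 to D1 difference of controls was -0.10 ± 0.35 (edgeR adjusted p = 0.92), and in the 14 libraries within 1 it was -0.44 ± 0.31 (edgeR adjusted p = 0.42). The call was also lost without D1 control replicate 2 (-1.07 ± 0.66) and without D49 control replicate 2 or 3 (-1.51 ± 0.63 and -1.46 ± 0.57), and with only the D1 and D49 controls fitted (edgeR adjusted p = 0.12). Age and GC deviation cannot be told apart for Hmga1 in these libraries. Hmga1b, a near-copy that could share reads with it, had 613 counts over all libraries and at most 7.64 CPM.

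**Figure D2:**
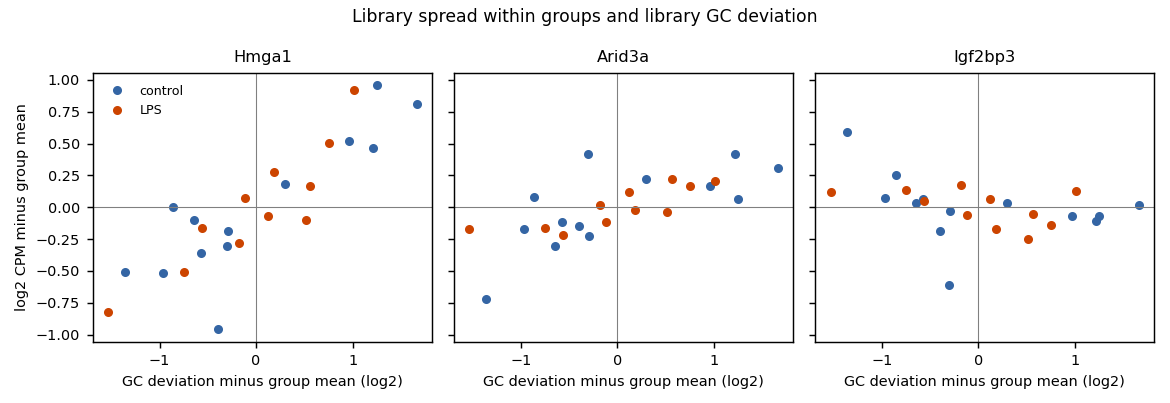
Log2 CPM of Hmga1, Arid3a and Igf2bp3 in each library minus its group mean, against the library's GC deviation minus its group mean; each point is 1 of 24 libraries, blue control and orange LPS. Hmga1 rises steeply with GC deviation (r = 0.87), Arid3a less steeply (r = 0.72), and Igf2bp3 has r = -0.39.

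**Figure D3:**
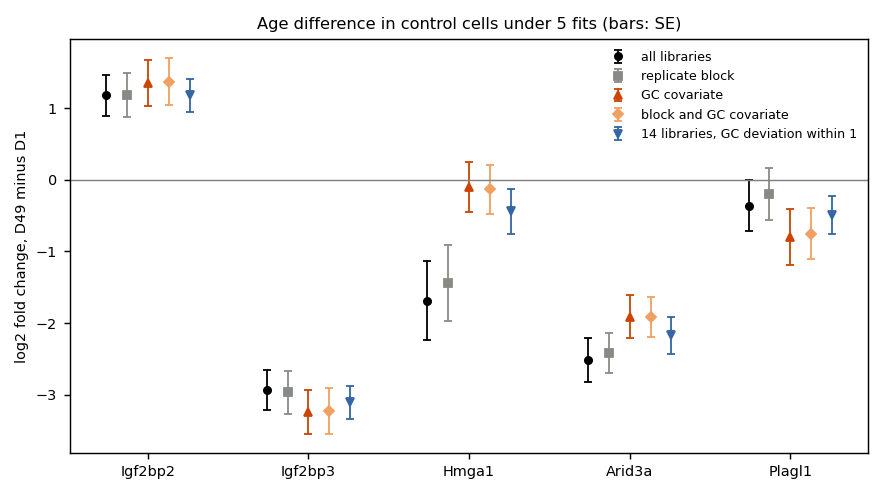
Log2 difference between D49 and D1 controls for the 5 tested genes under 5 fits: all libraries, a replicate block, the GC covariate, both together, and the 14 libraries with GC deviation within 1; bars are SE. Igf2bp3 and Arid3a lie below -1.5 and Igf2bp2 above 1 in each of them, while Hmga1 moves from -1.69 to -0.10 with the GC covariate.

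Tested over all 5 control ages at once, Igf2bp3 (edgeR adjusted p = 3.9e-06), Arid3a (5.4e-06) and Igf2bp2 (0.00044) differed with age, against 34.7% of all tested genes. Hmga1 (edgeR adjusted p = 0.051) and Plagl1 (0.13) did not pass. No member was called from D1 to D3, where 1.67% of genes were, or from D3 to D7, where 0.161% were, in edgeR or DESeq2 over all libraries. Plagl1 was called lower at D3 than at D1 under 3 of 32 alternative settings, and Igf2bp2 higher at D7 than at D3 under 1, as given with their values. Before adjustment the edgeR p was 0.01 for Plagl1 in the earlier step (-1.03 ± 0.36). In the later step it was 0.0071 for Igf2bp2 (0.83 ± 0.27) and 0.033 for Arid3a (-0.71 ± 0.31). The shares of genes given above use adjusted values and cannot be set against these.

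Lin28b (chromosome 10), the let-7 antagonist, was at the edge of detection. Controls held 10 and 10 counts at D1, 1, 4 and 4 on D3, 4 and 1 on D7, 0, 1 and 0 on D21 and 0, 1 and 0 at D49. LPS libraries held 5, 4 and 5 counts at D1, 6 and 2 on D3, 1 and 1 on D7, 0 and 2 on D21 and 0 and 3 at D49. Both D1 controls had more reads than any other library, at a level of 0.427 ± 0.0582 CPM (SD, n = 2). Fitted without the filter on low values, the D49 to D1 difference of controls missed the threshold (edgeR adjusted p = 0.062).

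Hmga2 (chromosome 10), the fetal paralogue of Hmga1 and a classical let-7 target, had 1 and 3 counts in D1 controls and 0 in all 11 controls of later ages. LPS libraries of D1 held 17, 8 and 5 counts, and those of later ages 0 to 4. Of its 43 counts 39 lay in LPS libraries, and without the filter no LPS comparison was called (edgeR adjusted p = 0.5 to 0.7). An opposite-strand gene shares 140 exonic bases with Hmga2 and had 30 counts.

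**Figure D4:**
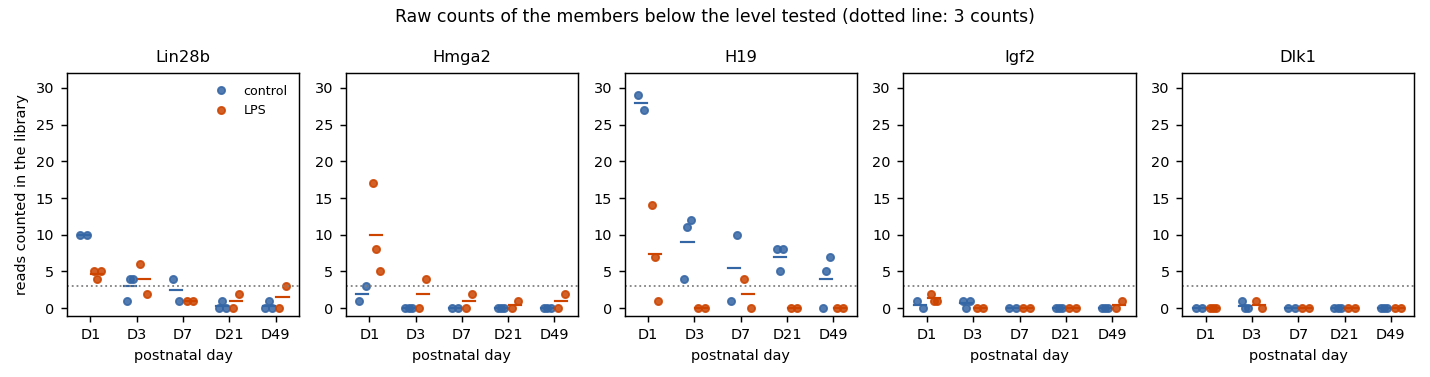
Raw counts per library of the 5 genes below the level tested, by postnatal day; blue is control, orange LPS, short bars are group means and the dotted line marks 3 counts. H19 and Lin28b are highest in D1 controls (27 to 29 and 10 counts), Hmga2 in D1 LPS libraries (5 to 17), and Igf2 and Dlk1 never exceed 2 counts.

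The third group are the imprinted genes. Igf2 (chromosome 7), the fetal growth factor, had at most 2 counts in any library, and Dlk1 (chromosome 12), a Notch-family membrane protein of fetal tissues, at most 1. H19 (chromosome 7), the noncoding RNA transcribed next to Igf2 from the maternal copy, held 29 and 27 counts in D1 controls, 4, 11 and 12 on D3, 1 and 10 on D7, 8, 5 and 8 on D21 and 0, 5 and 7 at D49. LPS libraries held 14, 7 and 1 counts at D1 and 4 and 0 at D7, and none in the 6 libraries of D3, D21 and D49. A count of 0 allows up to 3 counts, 0.116 to 0.226 CPM depending on the library. Fitted without the filter, no comparison called H19; the smallest edgeR adjusted p was 0.077, for LPS-treated D49 against D1.

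Plagl1 (also Zac1, chromosome 10), an imprinted zinc finger factor that restrains cell growth, differed from the others: none of its age differences passed the test over all libraries, and it rose with LPS at every age. Controls had 4.03 and 3.24 CPM at D1, 1.9, 2.01 and 1.4 on D3, 2.42 and 2.58 on D7, 2.23, 6.11 and 1.88 on D21 and 2.97, 2.47 and 3.08 at D49. LPS libraries had 116, 85.9 and 79.9 CPM at D1, 54.6 and 44.7 on D3, 109 and 89.9 on D7, 130 and 124 on D21 and 105 and 116 at D49. The lowest LPS library stood above every control library of any age. In D49 minus D1 controls the log2 difference was -0.36 ± 0.36 (edgeR adjusted p = 0.43). The difference of D3 to D1 controls was -1.03 ± 0.36 (edgeR adjusted p = 0.29), and it passed with the GC covariate (-1.11 ± 0.32, 0.039), over the 14 libraries within 1 (-1.32 ± 0.24, 0.022) and without D21 control replicate 2 (-1.03 ± 0.23, 0.026).

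The rise of Plagl1 was 25.9-fold at D1 (log2 difference 4.69 ± 0.43, edgeR adjusted p = 1.8e-06), 27.9-fold at D3 (4.80 ± 0.38, 1e-07), 39.8-fold at D7 (5.31 ± 0.45, 2.8e-07), 37.3-fold at D21 (5.22 ± 0.38, 3.7e-08) and 39-fold at D49 (5.28 ± 0.38, 5.5e-08). LPS called 5.67%, 7.01%, 9.61%, 13.5% and 10.2% of the tested genes at these ages. Under the 32 alternative settings the log2 difference of Plagl1 stayed between 4.51 and 5.94 and was called each time. The response at D49 exceeded that at D1 by 0.59 ± 0.49, which did not pass the test of the difference (edgeR adjusted p = 1). Other markers also separated the treatments. The summed level of the 8 monocyte markers was higher with LPS at every age. Its mean was 50.5 CPM in D1 controls against 100 with LPS, then 11.8 against 37.6 on D3, 8.2 against 35 on D7, 6.8 against 53.9 on D21, and 13.2 against 72.6 by D49. Of the 5 tested singly, none was called at D1 and 2 were called higher at D21. The lacrimal and salivary gland markers had mean sums of 0.426 CPM in controls and 1080 with LPS at D1, but 1670 in controls and 8.28 with LPS at D49. The part of either list in the Plagl1 difference was not tested.

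**Figure D5:**
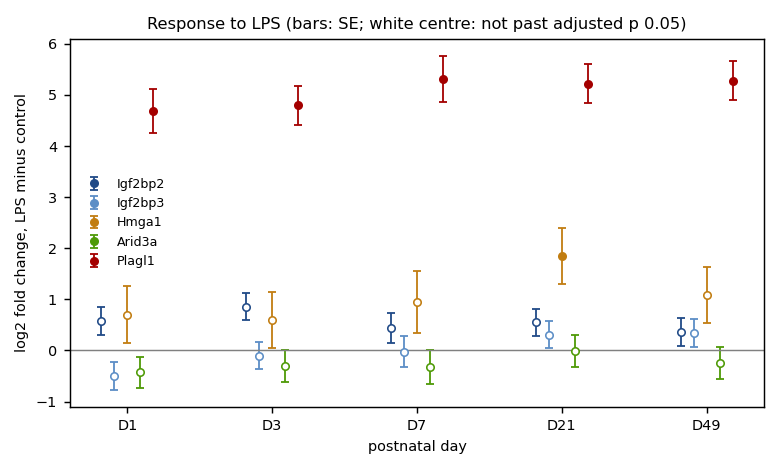
Log2 difference between LPS and control libraries at each postnatal day for the 5 tested genes, with SE; a white centre marks an edgeR adjusted p of 0.05 or more. Plagl1 lies between 4.69 and 5.31 at every age, Hmga1 passes at D21 alone, and the other 3 genes lie between -0.50 and 0.86.

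Of the other 4 tested genes, 1 was called at 1 age. Hmga1 rose at D21, from 12.1, 6.18 and 3.13 CPM to 24.5 and 27 (log2 difference 1.85 ± 0.55, edgeR adjusted p = 0.031), and its differences at the other ages were 0.59 to 1.08 and missed the threshold. At D7 it was called with only the groups compared (edgeR adjusted p = 0.032) and over the 14 libraries within 1 (0.011). The D21 value was 1.34 ± 0.29 once the GC covariate was fitted and 1.15 ± 0.28 over the 14 libraries within 1, still past the threshold, and it was lost without D21 control replicate 2 or 3 or either D21 LPS library (edgeR adjusted p = 0.1 to 0.13). Igf2bp2 had positive log2 differences at all 5 ages, 0.36 to 0.86, none past the threshold over all libraries. The nearest to the threshold was D3 at 0.86 ± 0.27 (edgeR adjusted p = 0.068), which passed under 9 of 32 alternative settings, among them DESeq2 (adjusted p = 0.018) and the GC covariate (edgeR adjusted p = 0.015). It did not pass with a replicate block (edgeR adjusted p = 0.11) or with only the groups compared (0.24), and the highest adjusted p was 0.31.

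Igf2bp3 and Arid3a had LPS differences of -0.50 to 0.34 and -0.43 to -0.01, none past the threshold. For no tested member did the LPS response at D49 differ from that at D1 in edgeR (0.204% of all genes did) or in DESeq2. With the unadjusted edgeR values 1 would pass, Igf2bp3, with a difference of 0.84 ± 0.39 (edgeR adjusted p = 0.89). One test over all 5 ages, added after the data were seen, gave an edgeR adjusted p of 1 for each of the 5, and called 0.595% of all tested genes.

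Among the 23 tested genes of the list of 29 other described let-7 targets, 5 were higher and 9 lower at D49 than at D1 in controls, and 9 were not called. Over all tested genes 21% were higher and 21.9% lower, and the counts of lists here and below are read against these shares. The median log2 difference was -0.13, against -0.03 over all tested genes. After Igf2bp1, the largest changes were falls of Thbs1, a matrix glycoprotein (-3.81 ± 0.43, edgeR adjusted p = 1.1e-05), of Arid3b, the paralogue of Arid3a (-3.05 ± 0.51, edgeR adjusted p = 0.00046), and of Hras, a signalling GTPase (-2.83 ± 0.87, edgeR adjusted p = 0.018). With the GC covariate they were -4.51 for Thbs1 and -2.03 for Arid3b, both still called, and -0.94 for Hras, not called (edgeR adjusted p = 0.32). Hras kept its call under 26 of 32 alternative settings and ranged from -4.85 to -0.81, Arid3b kept it under 31 and Thbs1 under 32. Grouped by sequence alone, 83 of 334 tested genes with one 8-base let-7 match were higher and 70 lower at D49, with a median of 0.00; of 15 genes with more than one match 1 was higher and 4 lower, with a median of -0.17; and of 8050 genes with none of the 3 motifs 1659 were higher and 2121 lower, with a median of -0.22.

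The machinery that makes and uses let-7 showed no common direction with age: of 17 tested genes 3 were higher and 2 lower at D49 in controls, with a median log2 difference of 0.09. That is a smaller share than the 42.8% called over all tested genes. Drosha, the nuclear nuclease that cuts microRNA precursors, fell (-1.94 ± 0.36, edgeR adjusted p = 0.00096), and Ddx3x, an RNA helicase, rose (1.73 ± 0.36, edgeR adjusted p = 0.0021). With the GC covariate the differences were -1.26 for Drosha and 0.75 for Ddx3x, both still called. Ddx3x lost its call without D1 control replicate 2 (1.47 ± 0.46), and both lost it with only the D1 and D49 controls fitted. With LPS, Tnrc6b and Ago4, 2 effectors of microRNA silencing, were lower at every age. Tnrc6b had log2 differences of -1.13 to -1.95 (edgeR adjusted p = 0.013 to 0.00013) and Ago4 of -0.97 to -1.83 (edgeR adjusted p = 0.02 to 0.00023). The calls of Tnrc6b held under 27 to 32 of the 32 alternative settings, depending on the age, and those of Ago4 under 22 to 32.

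Of the 23 tested genes of the let-7 target list, LPS called 2, 4, 4, 6 and 5 higher from D1 to D49. It called 1, 1, 1, 3 and 2 lower, to be read against the LPS shares over all tested genes given above. E2f5 was called higher at every age, with log2 differences of 1.32 to 1.94 (edgeR adjusted p = 0.029 to 0.00055). Its calls held under 26 to 32 of the 32 alternative settings, depending on the age. Igf2bp1 and Plagl2 were also raised, each called from D3 to D49. Igf2bp1 had 3.36, 3.6 and 2.25 CPM in D3 controls against 11.7 and 12.1 with LPS (log2 difference 1.95 ± 0.49, edgeR adjusted p = 0.017), and 1.29 and 1.21 CPM in D7 controls against 5.82 and 5.58 (2.18 ± 0.58, edgeR adjusted p = 0.019). At D21 it had 15 and 17 counts with LPS against 5, 3 and 0, and at D49 15 and 6 against 3, 1 and 0 (edgeR adjusted p = 0.013 at both ages). With only the groups compared the edgeR adjusted p was 0.54 at D49 and 0.23 at D21, and the D21 call was also lost over the 14 libraries within 1 (0.058). Without D49 LPS replicate 1 the adjusted p at D49 was 0.23, and without D21 LPS replicate 2 that at D21 was 0.11. At D3 and D7 the adjusted p exceeded the threshold when single libraries of those ages were left out, reaching 0.11 and 0.16, and at D3 it was 0.05 with a replicate block, not called. The summed level of the 10 endothelial markers was higher with LPS at the same ages. Its mean was 6.05 CPM in D3 controls against 16.2 with LPS, then 3.75 against 8.23 on D7, 2.06 against 8.03 on D21, and 1.75 against 3.46 by D49. Only 2 of the 10 were tested singly, and at D49 1 was called higher while their median log2 difference was -0.17. The monocyte sums given above were higher as well. The part of either list in the Igf2bp1 difference was not tested. Plagl2, the paralogue of Plagl1, had 41.6, 19 and 28.1 CPM in D49 controls against 119 and 96.9 with LPS (log2 difference 1.87 ± 0.31, edgeR adjusted p = 0.00042). Its difference at D3 was 1.05 (edgeR adjusted p = 0.045) and kept its call under 16 of 32 alternative settings.

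Of the genes around IGF signalling, 7 of 18 were expressed well enough to test, with 2 higher and 1 lower at D49 in controls and a median of -0.48. This share is near the 42.8% called over all tested genes. Igf2r, an imprinted receptor on chromosome 17 that carries IGF2 to lysosomes, had the largest change. It had 58 and 65.9 CPM in D1 controls, 36, 44.9 and 25.1 on D3, 12 and 13.7 on D7, 1.54, 0.531 and 2.13 on D21 and 2.45, 1.63 and 1.05 at D49. Every library of D7 lay below those of D3 and above those of D21, and D21 and D49 overlapped. The log2 difference of D49 to D1 was -5.16 ± 0.42 (edgeR adjusted p = 3.2e-07), called under all 32 alternative settings with values of -5.52 to -4.49.

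Igf1, a macrophage-made growth factor, had the opposite course. It had 41 and 32.3 CPM in D1 controls, 71.1, 56.4 and 65.6 on D3, 92.7 and 97.5 on D7, 146, 249 and 174 on D21 and 126, 107 and 288 at D49. The log2 difference of D49 to D1 was 2.24 ± 0.36 (edgeR adjusted p = 0.00034), called under 31 of 32 alternative settings, and 1.44 ± 0.32 with the GC covariate, still called. LPS lowered Igf1 at every age, by log2 differences of -1.39 to -2.41 (29 to 32 of 32 settings). Insr, the insulin receptor, rose by 1.00 ± 0.32 with age in controls (edgeR adjusted p = 0.021; 26 of 32 settings), but by 0.36 ± 0.31 with the GC covariate and 0.58 ± 0.19 over the 14 libraries within 1, neither called (edgeR adjusted p = 0.56 and 0.083), and by 0.55 ± 0.29 without D49 control replicate 3 (0.16). It was lower with LPS at every age, with log2 differences of -1.43 to -1.98 (29 to 32 of 32 settings). Htra1 of the same list was higher with LPS, by 1.77 at D3, 4.37 at D7, 3.52 at D21 and 2.56 at D49 (24 to 32 of 32 settings). Of the 7 tested genes of the IGF list, LPS called 2 lower and 0 higher at D1. At each later age it called 2 lower and 1 higher, to be read against the LPS shares over all tested genes given above. Of 23 other imprinted growth genes 3 were tested: Igf2r, Impact, a translational regulator that rose (1.25 ± 0.30, edgeR adjusted p = 0.0059; 28 of 32 settings; 0.57 ± 0.25 and not called with the GC covariate), and 1 that was not called. Igf2r held an 8-base let-7 match, as printed above.

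Across the 24 libraries the log2 levels of Igf2bp3 and Arid3a had r = 0.78, Igf2bp2 and Arid3a r = -0.80, and Igf2bp2 and Igf2bp3 r = -0.63; these libraries share their age groups and GC deviation, and the values are descriptions. Genes whose 10 group means of log2 CPM were most like those of Igf2bp3 were Bex3 (r = 0.974), Ebi3 (0.97) and Ak8 (0.967). Among those most like Igf2bp2 were Slc30a4 (r = 0.981) and Mir22hg (0.958). Those most like Arid3a were Fgr (r = 0.992), Nup93 (0.991) and Fyb (0.991). A likeness above 0.95 was shared by 207 genes for Arid3a, 15 for Igf2bp3 and 12 for Igf2bp2.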

How the data were processed

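The deposited table holds whole-number counts per Ensembl gene for 24 libraries with an exonic length per gene, although its name mentions FPKM. The submitters' processing notes name STAR, DESeq2 and GRCm39, with no versions. Not given in the sources used here were the counting tool, its annotation and its strand setting. Per the labels' protocols, poly(A) RNA was selected with oligo(dT) beads. The notes on culture medium differ between 2 labels.

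Identifiers were matched to GENCODE M21 (GRCm38), so no coordinates are printed: 52073 of 56691 rows had a symbol, and rows without one held 0.904% of counts. The members and lists were chosen with earlier results of these data known.

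FPKM was derived from the counts by exonic length and total. A gene entered the test if 2 libraries or more reached FPKM 1, and these 11774 genes were fitted in edgeR 4.0.16 (R 4.3.3; TMM scaling, quasi-likelihood test, 10 group means), with Benjamini-Hochberg adjustment over all tested genes and a threshold of 0.05; SE is the log2 difference over the square root of F. CPM uses TMM-scaled totals. GC deviation is the log2 level of the 10% of tested genes highest in GC relative to the 10% lowest, centred over libraries. Alternatives were DESeq2 1.42.0, RLE scaling, a minimum of 10 counts in all in place of the filter, only the groups compared, a replicate block, the GC covariate, both, only libraries within 1, and leaving out each library (32 settings). The test was tried on simulated counts: of 4-fold changes 45.7% and of 2-fold changes 3.7% were recovered for D49 minus D1 controls over 11774 genes. Replicates differed beyond counting noise in every group (chi-square per degree of freedom at least 15.1), so none were merged.

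All members are named, and of each other list up to 4 called genes with the largest log2 differences; for members passing the 5-age test the 3 most correlated genes are given, except 1 gene that is not reported here.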

Additional observations from a re-analysis of the deposited data

How the results depend on the processing

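No called member reversed its direction under any of the 32 alternatives. In controls, 4 members were called between D1 and D49; this became 1 when only those libraries were fitted, and 2 to 4 when single libraries were left out. The 2 calls over the 4 neighbouring age steps became 0 with only the groups compared, 4 when the GC covariate was added, 5 over the 14 libraries within 1 and 1 to 2 without single libraries. Calls between LPS-treated D1 and D49 were 3 (2 to 4), over the 5 control ages 3 (3 to 4), and over the 5 LPS comparisons 6 (5 to 8); the LPS response at D49 against D1 gave 0 throughout. The causes were not tested. Over all genes, the D49 to D1 control comparison called 5042 of 11774 genes, 116 with only the groups compared, 1227 when the GC covariate was added and 1482 over the 14 libraries, so the background share depends strongly on the fit.

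Replicate numbers are shared between control and LPS groups. The deviations of same-numbered libraries from their group means correlated at 0.07 to 0.83 over 10 pairs, over 0.1 in 7. Of 20 libraries 18 correlated best with their own number. In a group of 2 libraries the deviations are mirror images, so these pairs and libraries are not independent and the counts overstate the evidence. They are at most a weak hint from the data and not from the design. With a replicate block the member calls were 4 between D1 and D49 in controls, 3 over the 5 control ages, 2 over the age steps, 3 in LPS-treated cells, 6 over the LPS comparisons and 0 for the difference in response; with the block and the GC covariate they were 3, 3, 3, 3, 7 and 0.

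The counts of Lin28b, Hmga2, Igf2, H19 and Dlk1 were too low to judge a difference. Fitted without the filter, no difference of Lin28b, Hmga2 or H19 was called.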
